A study of Mus musculus with 4 samples.

Results

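The comparison described here set the periodontal ligament of 10-week-old Mkx knockout mice against that of 4-week-old Mkx knockout mice. It used 2 of the 4 arrays of the series, the knockout array at each age, and the wild-type (WT) arrays of 10 and 4 weeks were read beside them. The periodontal ligament (PDL) is the connective tissue that ties the tooth root to the bone of its socket. Mkx-KO mice are knocked out for the Mohawk homeobox gene, which encodes a transcription factor of tendons and ligaments. Both preparations compared carry the knockout, so the comparison asks how the tissue without Mkx differs between a young and an adult age. Each group had 1 array, and the labels give neither the number and sex of the mice in a preparation, nor the teeth used, nor the Mkx allele. There was no replicate, no p-value was computed, and a difference of age cannot be told apart from a difference between these particular preparations.

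In the mouse, the molars come into use in the weeks before and around the younger age, and the incisors keep growing through life. The ligament is built from type I and type III collagen fibres, with finer collagens and elastic-type microfibrils between them, and its fibroblasts make and remodel this matrix throughout life. It lies against cementum on the root and alveolar bone on the socket side, and marrow, gum, nerve and vessels are close by. Genes of these neighbours were therefore followed as well as genes of the ligament itself.

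A level is the log2 signal of a gene after the 75th percentile of its array was subtracted, so a level of 0 is the signal of a fairly bright probe, and a difference is the level at 10 weeks minus the level at 4 weeks. A gene was measured where its probe was well above background on both knockout arrays, which held for 15675 of 22911 named genes. Between 61.8% and 65.3% of spots were well above background on the 2 knockout arrays, and no spot was saturated. The technical error of a difference was combined from the errors that the scanner software gives for the spots on the 2 arrays. It had a median of 0.20, with values from 0.20 to 0.45, and covers the spot reading but not the mice. Replicate spots of a probe had a smaller median standard deviation, 0.04 on each knockout array. A difference of at least 2-fold, which is 1 log2 unit, is called here simply higher or lower. For a gene read above background on 1 of the arrays only, the difference is a bound, written as at least N-fold. It was taken against the dimmest level that the other array could call, or against the gene's own reading there where that was brighter. The direction of a bound is set by which array read the gene, so medians with bounds are descriptions only.

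Of the measured genes, 1046 (6.67%) were at least 2-fold higher at 10 weeks and 534 (3.41%) at least 2-fold lower. Together that is 10.1% of genes at least 2-fold apart, the background for every count below. Smaller differences leaned the other way: 59% of all differences were negative and 41% positive, with a median of -0.11, quartiles of -0.39 and 0.25, and a standard deviation across genes of 0.74. Quantile normalization gave 837 higher and 662 lower genes, so the share of higher among called genes was 55.8% with it and 66.2% without it. The high side had the longer tail, with 93 genes over 8-fold higher and 8 over 8-fold lower. Bounds were given for 980 genes read only at 10 weeks, 531 of them at least 2-fold higher. For 276 genes read only at 4 weeks bounds were given as well, 62 of them at least 2-fold lower. The 10-week array also had more spots above background, 65.3% against 61.8%. The correlation between the knockout arrays across genes was 0.961; genes are not independent replicates.

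**Figure D1:**
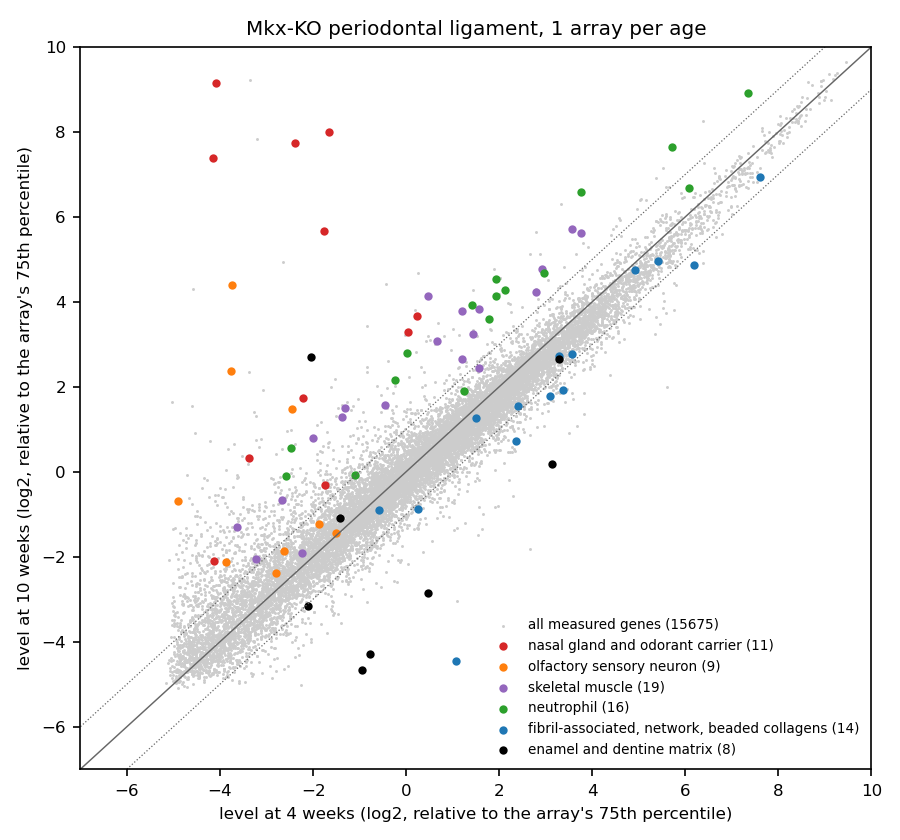
Level of each measured gene in Mkx-KO periodontal ligament at 4 weeks (horizontal axis) and 10 weeks (vertical axis), both log2 relative to the array's 75th percentile, 1 array per age. The solid line marks equal levels and the dotted lines a 2-fold difference; most nasal gland, olfactory, muscle and neutrophil genes lie above the upper dotted line, while the 14 fibril-associated, network and beaded collagens all lie below equality.

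The knockout array at 4 weeks stood apart from the other arrays in genes of some tissues around the tooth, and this touches the results on those genes. The summed signal of the nasal gland and odorant carrier genes, in multiples of the array's 75th percentile, was 3.85 on that array, against 2167 in Mkx-KO at 10 weeks, 1625 in WT at 10 weeks and 582 in WT at 4 weeks. Olfactory sensory neuron genes summed to 1.45 there and to between 33.7 and 40.7 on the other arrays. Skeletal muscle genes summed to 58.6 there and to 141 or more elsewhere, and neutrophil genes to 328 there and to 590 or more elsewhere. What part the makeup of the preparations had in any difference below was not tested. In whole tissue, fewer cells of a type and less RNA per cell cannot be told apart.

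Mkx itself was read above background on both knockout arrays. Its level was -1.71 at 10 weeks and -1.07 at 4 weeks, a difference of -0.65, while WT stood at 0.39 and 0.59. Its probes gave differences of -0.65 and -0.49 in the knockout, both within 2-fold. Whether either probe lies in the deleted stretch was not analysed here. Tendon and ligament markers were well above background at both ages. Scx, which encodes the tendon transcription factor scleraxis, was at 2.36 at 10 weeks and 3.13 at 4 weeks. Tnmd, the gene of the tendon membrane protein tenomodulin, was at 0.53 and 1.39. Six2 differed by -0.90 and Eya2 by -0.64, while Eya1, a relative of Eya2, differed by 0.30. None of the 7 measured regulators and markers was 2-fold apart, and their median was -0.65 in Mkx-KO and -0.28 in WT.

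The main fibre-forming collagens differed by less than the technical error, and 3 minor fibrillar chains were at least 2-fold lower at 10 weeks. Col1a2, a chain of type I collagen, was at 9.64 at 10 weeks and 9.46 at 4 weeks. Col3a1, the chain of type III collagen, was at 8.33 and 8.26, and Col1a1 at 8.31 and 8.38, though the Col1a1 probe lay in a locally bright area of a knockout array. These differences of 0.18, 0.08 and -0.08 lie within the technical error of 0.20, which is combined from the software's spot errors. The median standard deviation of replicate spots was smaller, at 0.04 on each knockout array. The chains past 2-fold belong to type V and XI collagens, which sit inside the fibril and limit its thickness. Col5a1 went from 6.80 at 4 weeks to 5.59 at 10 weeks, a difference of -1.21, and Col5a3 differed by -1.16. Col11a2 differed by -1.24 on its brightest probe, with its probes between -1.24 and -0.30, while Col11a1 and Col5a2, of the same types, differed by -0.54 and -0.33 and Col27a1 by -0.55. Of 10 fibrillar chains, 3 were at least 2-fold lower and 0 higher, with a median of -0.43 that shrank to -0.18 under quantile normalization. The same median in WT was -0.27, with 0 chains lower by that much.

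Collagens of the fibril surface, basement membrane and beaded filaments all had a negative difference, from -5.53 to -0.17. Their median over 14 genes was -0.82, against -0.11 over all genes and -0.29 for the same list in WT, and 6 of the 14 were at least 2-fold lower. Col26a1, a little-studied short collagen, read 1.07 at 4 weeks and -4.46 at 10 weeks. That difference of -5.53 was the largest on the low side among measured named genes, and in WT it was -2.93. The beaded-filament chains Col6a1 and Col6a2 differed by -1.32 and -1.46, and the basement membrane chains Col4a1 and Col4a2 by -1.32 and -1.63. In WT these 4 chains also had negative differences, with Col6a1 at -0.58, Col6a2 at -0.62 and Col4a1 at -1.13. Col14a1, which coats fibrils, differed by -1.14, whereas Col12a1, the fibril-associated chain typical of stretched ligaments, stood at 4.74 and 4.91, a difference of -0.17.

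The enzymes that make collagen into fibres were also on the low side. Lox, the lysyl oxidase that cross-links collagen and elastin, differed by -1.38, from 5.23 at 4 weeks to 3.84 at 10 weeks. P3h1 and P4ha3, prolyl hydroxylases, differed by -1.14 and -1.01, and Plod2, the lysyl hydroxylase of the telopeptides, by -0.80. Adamts14, which cuts the amino-terminal propeptide of procollagen, differed by -1.18, and its relative Adamts3 was at least 2.80-fold lower. Serpinh1, the collagen chaperone HSP47, went from 6.72 to 6.11. Of 24 measured processing genes, 22 had a negative difference, 4 were at least 2-fold lower and 1 higher, with a median of -0.79 in Mkx-KO and -0.47 in WT. The exception, Pcolce2, an enhancer of carboxy-terminal propeptide cleavage, differed by 1.58 in Mkx-KO and 0.23 in WT.

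Genes of the secretory route shifted the same way by smaller amounts. Of 24 genes for folding and export from the endoplasmic reticulum, 23 had a negative difference, 2 were at least 2-fold lower and 0 higher. The median was -0.63, -0.42 under quantile normalization and -0.25 in WT. Creb3l1, a transcription factor that drives collagen secretion in bone, went from 4.04 at 4 weeks to 2.49 at 10 weeks. Manf, a factor released under folding stress, differed by -1.14, Calr by -0.91 and Xbp1 by -0.76. Hspa5, the chaperone BiP, differed by -0.57 in Mkx-KO and by 0.00 in WT. Of 18 mitochondrial respiratory chain genes, none was 2-fold apart, and their median of -0.29 went to 0.0009 under quantile normalization. None of 13 reference genes was 2-fold apart either, with Actb at -0.35, Gapdh at -0.30 and a median of -0.15. Under quantile normalization Gapdh and the median turned positive, each at 0.04.

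Small leucine-rich proteoglycans, which bind to collagen fibrils and space them, showed no common direction. Their median was 0.04, with 8 of 13 positive and 1 at least 2-fold higher. Fmod and Bgn, the genes of fibromodulin and biglycan, differed by -0.89 and -0.83. Dcn and Aspn, which encode decorin and the PDL-associated proteoglycan asporin, differed by 0.37 and 0.46. Podn and Prelp differed by 0.80 and 0.69, with the probes of Prelp between 0.03 and 0.69. Chad, the gene of chondroadherin, was the member past 2-fold, at 1.03.

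Among the matricellular proteins, which signal to cells from the matrix, Ccn1, Ccn2 and Ccn3 of the CCN family were at least 2-fold higher at 10 weeks. Ccn2, the connective tissue growth factor gene and a target of mechanical signalling, went from 3.33 to 6.31, a difference of 2.98. Ccn1 went from 2.26 to 3.76 and Ccn3 from -0.85 to 0.99. In WT the 3 genes differed by 1.61, 1.24 and 1.04. Tnxb, the gene of tenascin X, which supports fibril spacing, differed by 1.63 in Mkx-KO and 0.19 in WT. Spon2, the gene of the matrix protein mindin, was the strongest on the other side, with a difference of -3.61 that was -4.04 in WT. Postn, the periostin gene and a defining product of the ligament, stood at 8.05 and 8.12, and Sparc at 9.25 and 9.18. Over the 17 genes, 4 were at least 2-fold higher, 1 lower, and the median was -0.07, with 0.09 under quantile normalization.

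Elastic and oxytalan fibre genes, whose products form microfibrils that run through the ligament, had 5 of 17 members at least 2-fold lower and 0 higher. Fbn2, the fibrillin of growing tissue, went from 1.97 to -0.81, a difference of -2.78, with its probes between -3.45 and -2.78. The adult fibrillin Fbn1 differed by -0.77. Mfap2 and Mfap4, microfibril components, differed by -1.54 and -1.35, Emilin1 by -1.23 and Eln, the elastin gene, by -1.22. Of the 17, 12 had a negative and 5 a positive difference, the latter led by Efemp1 at 0.66, and the median was -0.43 in Mkx-KO and -0.12 in WT.

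Among matrix proteases and their inhibitors, 4 of 17 genes were at least 2-fold lower and 2 higher. Adamts4, an aggrecanase that also cuts versican, went from 1.63 to -1.35, a difference of -2.98. Mmp14, the membrane collagenase of fibroblasts, differed by -1.08 and Mmp11 by -1.12, while Mmp13 differed by 0.14. Timp3, an inhibitor anchored in the matrix, went from 5.37 to 6.93, and Timp4 from -4.81 to -1.89. The median of the list was -0.35. In WT the largest of these differences were -2.68 for Adamts4 and 1.01 for Timp3, while Timp4 differed by 0.28.

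In the osteoblast, osteocyte and cementoblast list, 2 of 18 measured genes were at least 2-fold lower at 10 weeks and 1 higher. The lower ones were Smpd3, of matrix mineralization, at -1.42, and Ifitm5, specific to mineralizing osteoblasts, at -1.20. Sp7, the osterix gene, differed by -0.73 and Bglap, the osteocalcin gene, by -0.75. Mepe, of osteocytes, went from 0.47 to 3.21, a difference of 2.73, and Sost, the osteocyte inhibitor of Wnt signalling, at least 6.89-fold higher and not well above background at 4 weeks. Dmp1 differed by 0.33. In WT, Mepe differed by 0.28 and Sost by 0.48. Ibsp, the bone sialoprotein gene of bone and cementum, differed by 0.49 in Mkx-KO and by -2.22 in WT. The median of the list was -0.44 in Mkx-KO and -0.38 in WT. None of 8 measured genes of phosphate and pyrophosphate handling and mineral inhibition was 2-fold apart, with Mgp at 0.14, Ank at -0.09 and Enpp1 at 0.61.

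Osteoclast genes, of the cells that resorb the socket wall, were near their 4-week level. Acp5, the tartrate-resistant acid phosphatase gene, stood at 8.74 and 8.98, and Ctsk, the collagen-degrading cathepsin, at 7.49 and 7.85. Calcr, the calcitonin receptor gene, differed by 0.41, and Ocstamp, needed for cell fusion, by -0.88. None of the 16 genes was 2-fold apart and their median was -0.25. In WT the median was -0.91, with 8 of the 16 at least 2-fold lower, Acp5 at -1.23 and Ocstamp at -1.86; the difference between genotypes was not tested. Among 6 genes that signal to osteoclasts, Il34, a ligand of the Csf1 receptor, differed by 1.76, Tnfsf11, the RANKL gene, by -0.19 and its decoy receptor Tnfrsf11b by 0.65.

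Enamel and dentine genes had the list median farthest below 0. Dspp, the dentine sialophosphoprotein gene of odontoblasts, went from 3.14 to 0.17, a difference of -2.96. The enamel-stage genes Mmp20, Amtn and Ambn differed by -3.73, -3.53 and -3.32. Amelx, the amelogenin gene, ran the other way, from -2.05 at 4 weeks to 2.70 at 10 weeks, and Enam was at least 6.26-fold higher. In WT, Amelx differed by -1.59 and Enam by -1.07, with Ambn at -2.54 and Dspp at -3.80. Of 8 measured genes, 5 were at least 2-fold lower and 1 higher, with a median of -2.01 that became -1.05 with Enam at its bound. These genes mark tooth-forming cells and not the ligament, and their part in the other differences was not tested.

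Cartilage-type genes were mixed. Col9a2, a chain that decorates type II fibrils, went from 1.92 to -0.83, and the related chains Col9a1 and Col9a3 were at least 2.74-fold and 2.12-fold lower. Sox5 and Sox6, the partners of Sox9, differed by 1.24 and 1.27, and Sox9 itself by 0.38. Col2a1 stood at 4.94 and 5.13. Of 16 genes listed, 9 were measured, with 2 at least 2-fold higher and 1 lower.

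Imprinted genes of fetal growth, expressed from 1 parental copy and switched down as young mammals slow their growth, were mostly on the low side. Dlk1, which holds progenitor cells undifferentiated, went from 1.08 at 4 weeks to -3.05 at 10 weeks, a difference of -4.13, with its probes between -4.13 and -3.05. H19, the long non-coding partner of Igf2, differed by -2.60, Mest by -1.74 and Igf2 by -1.43. Peg3, Ndn and Cdkn1c, the last a cell cycle inhibitor, differed by -1.19, -1.06 and -1.04. Of 15 measured members, 14 had a negative difference and 7 were at least 2-fold lower. The median was -0.97 in Mkx-KO and -0.78 in WT, where Dlk1 differed by -2.64 and H19 by -2.42. Igf2bp3, an RNA-binding protein of fetal tissue, was the 1 gene of 13 in the IGF list past 2-fold, at -1.76, and Igf1 differed by -0.63.

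Cell division genes did not share that direction. None of 22 mitotic genes and none of 25 replication genes was 2-fold apart, and the medians were 0.04 and 0.17. Mki67, the proliferation marker, stood at 3.08 and 2.50, and Top2a at 0.97 and 0.99. Rrm2, which makes DNA precursors, had the largest difference of the replication list, 0.76.

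Secreted signals of the BMP family went in both directions. Bmp7 went from 2.11 to 0.20, a difference of -1.90, against -0.82 in WT. Sostdc1, an inhibitor of BMP and Wnt known from tooth development, differed by -1.97 and the decoy receptor gene Bambi by -1.29. Gdf5, a ligand of joint and tendon development, and Chrdl1, an antagonist, were each higher by 2.07, with WT values of 1.42 and 1.65. Over 18 genes, 4 were at least 2-fold lower and 3 higher, and the median was -0.16. In the TGF-beta list, Tgfb1 differed by -1.08, the follistatin-like inhibitor Fstl3 by -1.23 and Tgfb2 by 0.37, with 2 of 15 lower and 0 higher.

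Wnt pathway genes also went in both directions. Nkd1, an intracellular inhibitor that the pathway itself induces, went from 1.04 to -1.36, and Notum, a secreted one, from 2.67 to 1.27. The ligand genes Wnt10a and Wnt11 differed by -1.24 and -1.06, while Axin2, the standard target, differed by -0.38. Rspo3, an amplifier of the signal, and Sfrp5, a secreted antagonist, differed by 1.39 and 1.36. Of 27 measured genes, 4 were at least 2-fold lower, 3 higher, and the median was -0.25. In the Hedgehog list, the target gene Gli1 went from 1.20 to 0.00, and Ptch1 differed by -0.58; 1 of 10 genes was at least 2-fold lower.

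Of 14 measured transcription factors that pattern the jaws, 4 were at least 2-fold lower and 0 higher. Msx2 differed by -1.84 on its brightest probe, with probes between -2.48 and -1.84, Twist2 by -1.32, Prrx2 by -1.28 and Barx1, of the molar field, by -1.08. Their relatives Msx1, Twist1 and Prrx1 differed by -0.18, -0.14 and 0.10. The median of the list was -0.34. Retinoic acid genes were mixed. The binding protein gene Crabp1 differed by -1.31, and Aldh1a1, which makes retinoic acid, went from 0.62 to 2.12. Cyp26a1, which degrades it, was at least 9.47-fold lower. Of 11 measured genes of this list, 3 were at least 2-fold lower and 2 higher.

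Of 22 measured circadian clock genes, 10 were at least 2-fold higher at 10 weeks and 4 lower; they were listed after their values had been seen. The clock is a loop in which the activators Bmal1 (Arntl here), Clock and Npas2 switch on the repressors of the Per and Cry families and the output factors Dbp, Tef and Hlf, while Nr1d1 and Nr1d2 repress Arntl. Levels of these transcripts turn over daily in most tissues, and the labels give no time of day of tissue collection. Promoters of 6 of these genes are shown because they hold the letters through which the loop is known to act. Per1, Tef and Arntl have 2 promoters each, and the 1 with the most matches is shown. They run from 250 bases before to 50 after the start site, on GRCm38.p6 as given by RefSeq, each 5′ to 3′ on the strand of the gene. Capitals mark the E-box CACGTG, the D-box TTANGTAA or the nuclear receptor half-site AGGTCA, searched on both strands, so that TGACCT is the half-site on the opposite strand.
Per1, chr11:69098699-69098998, plus strand: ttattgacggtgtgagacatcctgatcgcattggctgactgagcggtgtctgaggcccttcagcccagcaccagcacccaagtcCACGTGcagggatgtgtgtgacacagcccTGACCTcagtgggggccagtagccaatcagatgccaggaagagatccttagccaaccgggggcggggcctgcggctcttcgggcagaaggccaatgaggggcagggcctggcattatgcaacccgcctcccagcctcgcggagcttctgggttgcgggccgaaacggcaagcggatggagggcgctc
Per3, chr4:151044616-151044915, minus strand: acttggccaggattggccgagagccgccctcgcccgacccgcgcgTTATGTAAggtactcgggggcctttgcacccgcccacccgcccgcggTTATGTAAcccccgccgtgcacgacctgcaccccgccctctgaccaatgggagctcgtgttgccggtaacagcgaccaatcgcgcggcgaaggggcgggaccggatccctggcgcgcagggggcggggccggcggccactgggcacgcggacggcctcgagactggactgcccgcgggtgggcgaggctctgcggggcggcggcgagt
Tef, chr15:81802423-81802722, plus strand: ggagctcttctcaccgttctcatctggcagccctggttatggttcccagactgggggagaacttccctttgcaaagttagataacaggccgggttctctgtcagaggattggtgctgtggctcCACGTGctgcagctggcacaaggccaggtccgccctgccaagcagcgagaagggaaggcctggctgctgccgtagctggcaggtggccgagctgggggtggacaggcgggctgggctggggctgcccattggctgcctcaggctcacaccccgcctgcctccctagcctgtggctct
Bhlhe41, chr6:145865371-145865670, minus strand: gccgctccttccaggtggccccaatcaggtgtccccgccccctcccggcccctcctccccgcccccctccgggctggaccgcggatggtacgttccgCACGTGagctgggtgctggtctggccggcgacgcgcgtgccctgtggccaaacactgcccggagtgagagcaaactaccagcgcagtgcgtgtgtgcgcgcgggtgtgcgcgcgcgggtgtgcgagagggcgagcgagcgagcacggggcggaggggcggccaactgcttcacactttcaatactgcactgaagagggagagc
Arntl, chr7:113207261-113207560, plus strand: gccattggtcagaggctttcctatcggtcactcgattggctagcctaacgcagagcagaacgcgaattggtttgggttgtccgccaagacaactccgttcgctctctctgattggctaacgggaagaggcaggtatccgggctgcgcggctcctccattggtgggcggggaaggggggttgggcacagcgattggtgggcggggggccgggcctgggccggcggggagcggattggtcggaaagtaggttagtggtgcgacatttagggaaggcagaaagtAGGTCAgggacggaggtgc
Nfil3, chr13:52980990-52981289, minus strand: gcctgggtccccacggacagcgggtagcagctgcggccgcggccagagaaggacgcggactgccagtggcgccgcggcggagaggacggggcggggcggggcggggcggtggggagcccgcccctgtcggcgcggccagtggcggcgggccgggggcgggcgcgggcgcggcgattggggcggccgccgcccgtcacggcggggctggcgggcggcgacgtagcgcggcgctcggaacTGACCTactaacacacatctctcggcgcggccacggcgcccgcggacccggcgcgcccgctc
The table holds 27 promoters of 19 clock genes, since some genes have more than 1. An E-box stood in 6 of the 27, of Bhlhe41, Ciart, Cry1, Per1 and Tef, and in 7.15% of 32851 promoters of all genes. A D-box stood in 2 of the 27, of Per3 and Timeless, and in 2.32% of all promoters. The half-site stood in 5 of the 27, of Arntl, Clock, Nfil3, Nr1d2 and Per1, and in 16.3% of all promoters. These matches describe letters in the windows and no binding was measured.

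The output factors Dbp, Hlf and Tef, the Per genes and Nr1d1 and Nr1d2 were at least 2-fold higher at 10 weeks. Dbp, a factor that binds D-boxes, had the largest difference, with a level of 0.25 at 4 weeks and 4.68 at 10 weeks, so 4.43 apart. Its relatives Hlf and Tef went from -1.27 to 1.65 and from 2.87 to 5.12. Per3, whose promoter holds both D-boxes shown, went from -4.24 to -0.59, a difference of 3.66. Per2 differed by 1.63, with probes between 0.81 and 1.63, and Per1 by 1.39. The Arntl repressors Nr1d1 and Nr1d2 differed by 2.54 and 3.30, and Bhlhe41, which binds E-boxes, by 2.48. Ciart, a further repressor, was at least 4.84-fold higher.

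The 4 genes at least 2-fold lower were the activators Arntl and Npas2 and the repressors Nfil3 and Cry1. Arntl went from 0.55 at 4 weeks to -1.64 at 10 weeks, a difference of -2.19, and Npas2 from -2.31 to -4.32. Nfil3, a D-box repressor, differed by -1.35 and Cry1 by -1.02, while the activator Clock differed by -0.66 and the repressors Cry2 and Bhlhe40 by 0.12 and 0.44. The median of the list was 0.63. In WT 9 were higher and 3 lower by that much, with Dbp at 1.64, Per3 at 1.61, Nr1d2 at 1.37 and Arntl at -2.14. The plot of clock gene levels shows that the 10-week levels of the 2 genotypes lay close together for Dbp, at 4.68 and 4.53. Its 4-week levels, 0.25 and 2.89, did not. Hlf was alike, with 1.65 and 1.82 at 10 weeks and -1.27 and 0.67 at 4 weeks. Arntl was not, with Mkx-KO and WT at -1.64 and -2.43 at 10 weeks and 0.55 and -0.29 at 4 weeks.

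**Figure D2:**
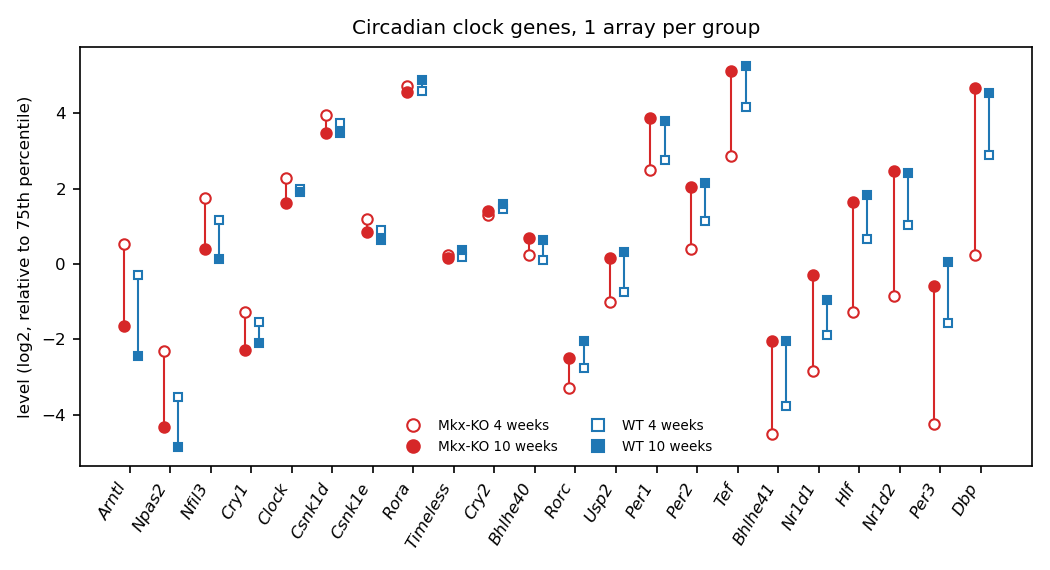
Levels of the 22 measured circadian clock genes (log2 relative to the array's 75th percentile), ordered by the Mkx-KO age difference, with open symbols for 4 weeks and filled symbols for 10 weeks, red circles for Mkx-KO and blue squares for WT, 1 array each. Arntl, Npas2, Nfil3 and Cry1 are lower at 10 weeks in both genotypes, and the genes from Usp2 to Dbp are higher.

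Interferon response genes, of antiviral defence, were on the higher side at 10 weeks in the knockout. Ifit1 went from -2.83 to -1.33, Ifit2 and Ifit3 differed by 1.54 and 1.41, and Oas1a by 1.15, while Isg15 differed by 0.50 and Irf7 by 0.58. Of 20 genes, 19 had a positive difference and 4 were past 2-fold, with a median of 0.65; in WT 11 were and the median was 1.12. Among 20 interferon-gamma response genes, Gbp5 and the T cell chemokine gene Cxcl9 were past 2-fold, at 1.23 and 1.48, and the median was 0.56. In WT the median was 1.02 and Cxcl9 differed by 6.33. The class II genes H2-Aa and H2-Eb1 differed by 0.82 and 0.71.

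Inflammatory genes went in both directions. Saa3, a local acute phase gene, went from 2.67 at 4 weeks to -1.82 at 10 weeks, a difference of -4.49, whereas in WT it differed by 3.28. The mediators Il1b and Ptgs2 differed by -1.35 and -1.37 and the chemokines Ccl3 and Cxcl2 by -1.81 and -1.29. Hp, the haptoglobin gene, C3 of the complement system and the neutrophil chemokine gene Cxcl5 were higher by 1.78, 1.52 and 1.13. Of 16 measured genes, 5 were at least 2-fold lower and 3 higher. No immediate early gene of 16, which respond within minutes to handling or stress, was 2-fold apart, with Fos at -0.42, Egr1 at -0.13 and a median of -0.35.

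Neutrophil genes were higher at 10 weeks almost as a block. S100a8, abundant in mature neutrophils, went from 5.71 to 7.65, and Camp, of the secondary granules, from 3.76 to 6.59. The primary granule genes Mpo, Ctsg and Prtn3, made in marrow precursors, differed by 2.61, 2.78 and 2.48, and Ms4a3, of early granulocyte precursors, by 3.05. Elane, also of the primary granules, differed by 0.66. Of 16 genes, 14 were at least 2-fold higher, with a median of 2.19; in WT 1 of 16 was, and the median was 0.36. The knockout array at 4 weeks had the lowest level of the 4 arrays for S100a8, Camp and Mpo, as the plot of genes from neighbouring tissues shows.

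Other blood cell lists differed by less or in part. Among 13 erythroid genes, Gata1, Rhag and Car1 differed by 2.32, 2.07 and 1.95, and Alas2, the haem synthesis gene of maturing red cells, by -0.85; 6 were at least 2-fold higher and the median was 0.91. Mature B cell genes had 0 of 12 past 2-fold, with Ms4a1 at -0.95 and a median of -0.36. Jchain, the joining chain of secreted antibodies, was at least 86.4-fold higher and Derl3, of the secretory pathway, higher by 2.36. The plasma cell receptor gene Fcrl5 differed by -1.18. B cell precursor genes had a median of 0.78, with Il7r and Dntt at 1.27 each and Rag1 not well above background on either array. In the T and natural killer cell list, 4 of 15 genes were at least 2-fold higher, Klrb1c at 2.48, Nkg7 at 2.18, Gzma at 1.37 and Cd8b1 at 1.04. The T cell genes Lck, Cd2 and Cd3d differed by 0.78, 0.77 and 0.56, and Cd3e and Cd4 by -0.30 and -0.48. Of 15 macrophage genes, 4 were at least 2-fold higher, among them Lyve1 at 1.27 and Cd163 at 1.17, and Cd68 differed by -0.59. Of 8 mast cell genes, 5 had a positive and 3 a negative difference. Ms4a2 and Fcer1a were past 2-fold, at 1.18 and 1.03, while the protease genes Cma1, Cpa3 and Mcpt4 differed by -0.73, -0.63 and -0.55.

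Skeletal muscle genes were higher at 10 weeks. Tcap, of the sarcomere ends, went from 0.48 at 4 weeks to 4.15 at 10 weeks, and Ckm, the muscle creatine kinase gene, from -1.38 to 1.29. The fast myosin genes Myh1, Myh2 and Myh4 differed by 2.26, 2.41 and 2.82, Acta1 by 1.82 and Ttn by 2.79, and Neb was at least 14.2-fold higher. Of 19 measured genes, 17 were at least 2-fold higher, with a median of 2.03; in WT 5 of 20 were, with a median of 0.43. Slow and developmental muscle genes were mixed, with 2 of 7 measured at least 2-fold higher. These were Myh8, the perinatal myosin, at 2.54 and Myl3 at 1.49, while Myh7 differed by 0.46 and Tnni1 by -0.13. Muscle is not part of the ligament, and its share in each preparation was not tested.

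Of 11 measured adipocyte genes, 7 were at least 2-fold higher. Adipoq, the adiponectin gene, went from -4.54 to -1.04, and Cfd, the adipsin gene, from -2.91 to -0.15. Plin4 differed by 2.42 and Fabp4 by 1.60, while Lpl, which other cells also make, differed by -0.56. The median was 1.30 against 0.47 in WT; Plin1 was not well above background at 4 weeks.

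In the smooth muscle and pericyte list, 3 of 13 genes were at least 2-fold lower and 1 higher, with a median of -0.12 that was 0.04 under quantile normalization. Acta2, the smooth muscle actin gene, went from 4.38 to 2.28, though its probes lay between -2.09 and -0.55, and Tagln from 4.28 to 2.82. Cnn1 differed by -1.06, whereas Myh11, the more restricted smooth muscle myosin, differed by 0.94, the channel subunit gene Abcc9 by 0.99 and Rgs5, of pericytes, by -0.11. Des, which skeletal muscle also makes, was higher by 2.69. In WT, Acta2 differed by -0.20 and Tagln by -0.16. Endothelial genes were near level, with Pecam1 and Kdr at -0.22 each and 1 of 17 past 2-fold, the vessel growth peptide gene Apln at -1.34. Schwann cell genes had 1 of 11 past 2-fold, Sox10 at 1.02. General fibroblast genes had a median of 0.10, with Pdgfra at -0.07 and Pi16 and Clec3b, of adventitial fibroblasts, at 1.19 and 1.11.

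**Figure D3:**
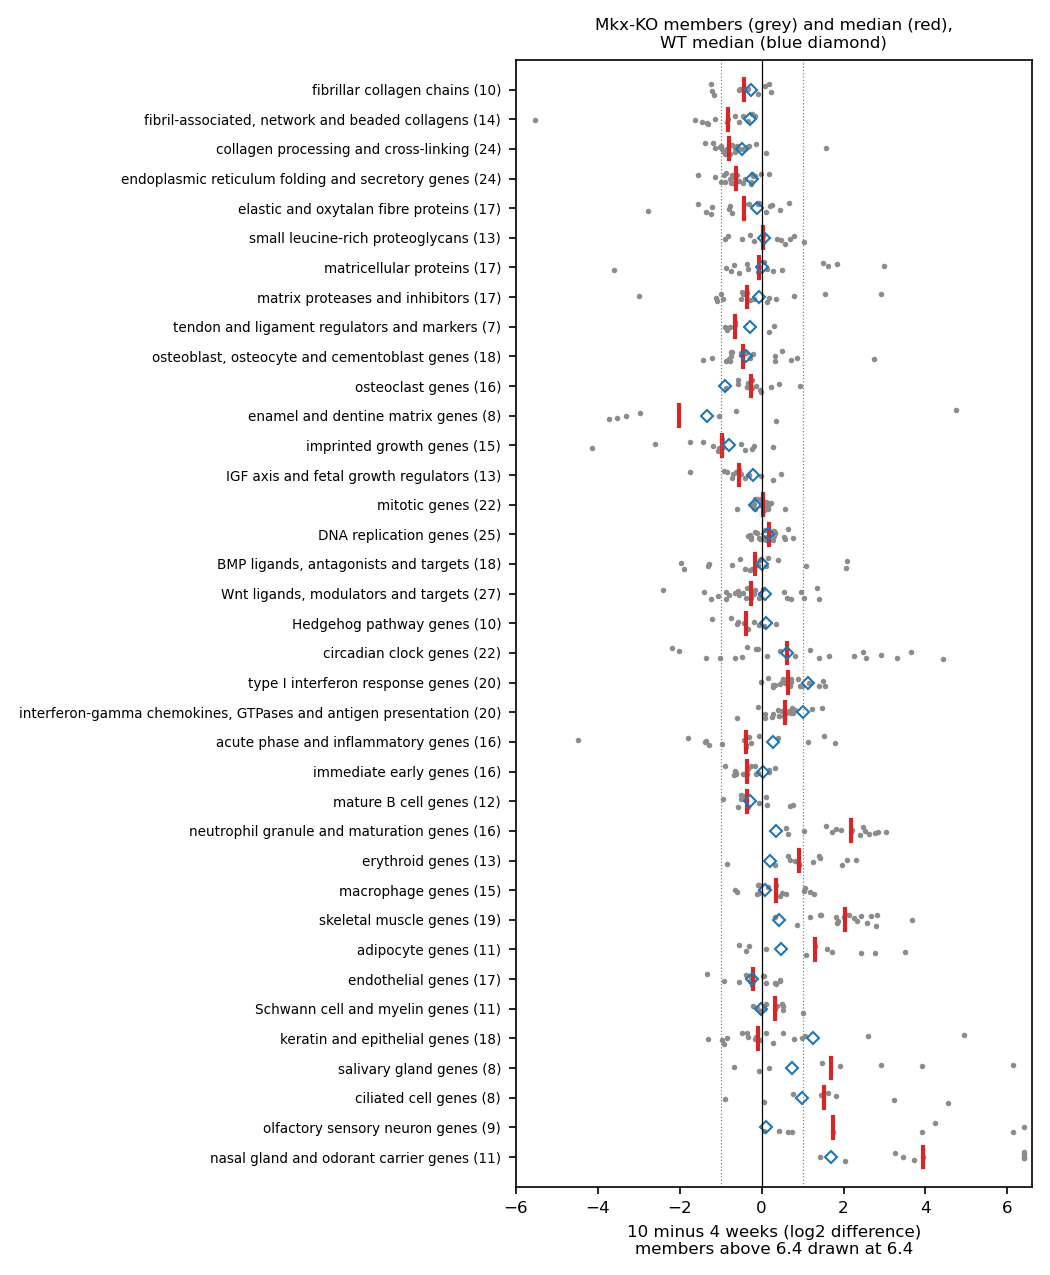
Differences at 10 minus 4 weeks (log2) of the measured members of 37 gene lists in Mkx-KO (grey points), with the list's median in Mkx-KO (red bar) and in WT (blue diamond), 1 array per group; the number of members measured in Mkx-KO follows each name and dotted lines mark 2-fold. The 37 lists are a selection from 56; among those drawn, red bars lie farthest left for enamel and dentine matrix and imprinted growth genes, and farthest right for nasal gland, neutrophil and muscle genes.

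Stratified epithelium, the lining of gum and mouth, gave no common direction in the knockout. Krt14 and Krt5, of the basal layer, differed by -0.16 and -0.48, Krt13 and Krt76, of the oral lining, by -0.85 and -0.93 and Krt1 by -1.31. The keratin genes of simple and glandular epithelium, Krt8 and Krt18, were higher by 4.94 and 2.61. Over 18 genes, 3 were at least 2-fold higher and 1 lower, and the median of -0.09 changed sign under quantile normalization, to 0.14. In WT 11 were at least 2-fold higher, with a median of 1.25. The desmosome and cornified envelope list was alike, with 0 of 14 past 2-fold in Mkx-KO, 6 in WT, and medians of -0.07 and 0.96.

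Several genes of salivary and related glands were higher at 10 weeks. Pip, a secreted protein gene of salivary and lacrimal glands, went from -4.61 to 1.54, and Bhlha15, the acinar transcription factor Mist1, from -3.54 to 0.38. Aqp5, the water channel of acini, differed by 1.91 and Amy1 by 1.48, while Lpo differed by -0.68. Dcpp2 and Dcpp3, secreted demilune proteins, were at least 29.1-fold and 16.9-fold higher. Bpifa2 was at least 1.30-fold higher in Mkx-KO and differed by -0.94 in WT. Of 13 salivary genes listed, 12 were well above background at 10 weeks and 8 at 4 weeks, and 5 of the 8 measured were at least 2-fold higher. In WT 5 of 12 measured were, with Bhlha15 at 2.81 and Aqp5 at 1.40. In a list of kallikreins and secretoglobins, 5 of 11 genes were measured and 4 of these were at least 2-fold higher, against 6 of 9 measured in WT. The kallikrein Klk1 differed by 2.91 and Egf was at least 21.1-fold higher; Scgb1b27 and Scgb2b27, secretoglobins of gland secretions, were at least 277-fold and 176-fold higher. Members of the kallikrein 1b and secretoglobin clusters are near copies, so a probe may read more than 1 of them.

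The largest differences were those of genes known from the nasal lining. Obp1a, an odorant-binding protein of nasal glands, had a processed signal of 127 at 4 weeks and 91283 at 10 weeks, levels of -1.67 and 8.01. Mup4, a major urinary protein family member made in nasal glands, went from -4.08 to 9.16, Lcn11, a lipocalin, from -4.16 to 7.39 and Wfdc18 from -2.39 to 7.73. Cyp2a5 and Cyp2a4, odorant-metabolizing cytochromes, differed by 7.43 and 7.60. Bpifb9b was at least 22472-fold higher, Mup20 at least 7702-fold and Cyp2g1, specific to olfactory mucosa, at least 317-fold. Of 20 genes listed, all 20 were well above background at 10 weeks and 11 at 4 weeks, and the 11 measured were all at least 2-fold higher. Their median was 3.94. The 9 bounded members were read at 10 weeks only and could only be higher, so the median of 7.59 with bounds follows from the filter. In WT, where all 20 were measured, the median was 1.70 and 17 were at least 2-fold higher. Mup, Cyp2a and Bpif genes are families of near copies, so single members are uncertain.

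Olfactory sensory neurons detect odours in the nasal lining, and several of their genes were at least 2-fold higher at 10 weeks in the knockout. Omp, the olfactory marker protein gene, went from -3.75 to 4.40, and Gng13, a G protein subunit of odorant signalling, from -3.77 to 2.37. The G protein Gnal differed by 3.92, the transcription factor Lhx2 by 4.23, and the channel gene Cnga4 was higher by at least 16.5-fold, Ano2 by 15.3-fold and Cnga2 by 13.4-fold. Of 16 genes listed, 9 were measured and 5 of these were at least 2-fold higher. WT levels of Omp were 4.72 and 4.38 and of Gng13 2.52 and 2.54, close to the knockout level at 10 weeks. The 4-week knockout array had the lowest Omp level of the 4, and the WT median of the 16 genes was 0.10. Ciliated cell genes, of airway lining, had 5 of 8 measured members at least 2-fold higher, among them the master regulator Foxj1 at 3.24 and Ccdc153 at 4.55. Tekt1 was at least 23.7-fold higher. The lowest member of that list differed by -0.90, and its summed signal in Mkx-KO was 18.9 at 10 weeks and 22.3 at 4 weeks. In WT, Foxj1 differed by 1.61 and Ccdc153 by 2.62.

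**Figure D4:**
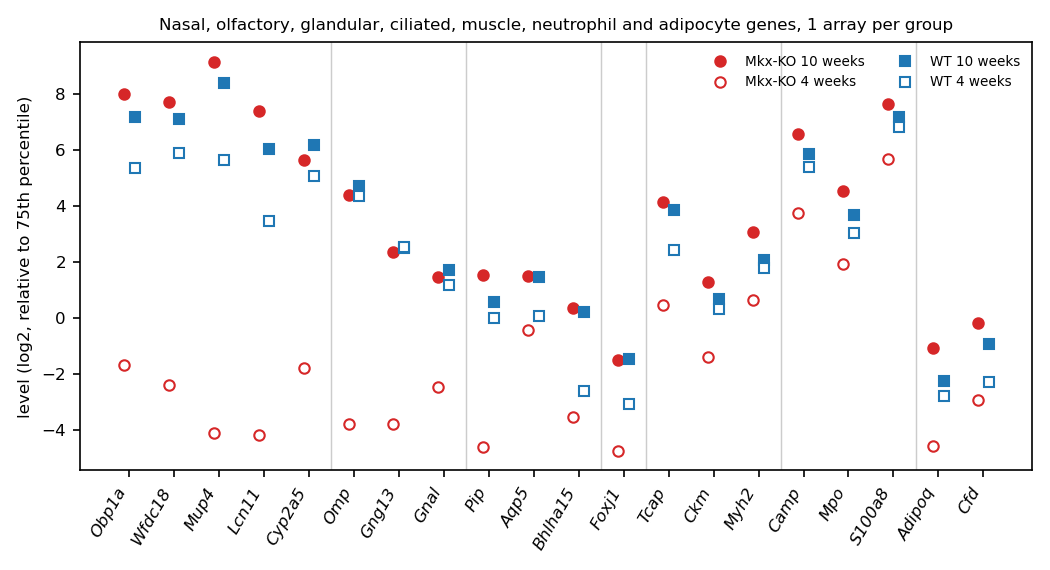
Levels (log2 relative to the array's 75th percentile) of nasal, olfactory, glandular, ciliated, muscle, neutrophil and adipocyte genes, separated by grey lines, on each of the 4 arrays; red circles are Mkx-KO, blue squares WT, open symbols 4 weeks and filled symbols 10 weeks. The open red circle, Mkx-KO at 4 weeks, is the lowest point of every gene drawn, as for Omp at -3.75 against 4.38 or more.

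The inhibitory neuron genes Gad1 and Slc32a1 were higher at 10 weeks in the knockout and lower in WT. Gad1, which makes the transmitter GABA, stood at -1.24 at 10 weeks and -4.49 at 4 weeks, and Slc32a1, its vesicle transporter, at -0.59 and -3.94. The WT levels of Gad1 were -3.89 and -0.62, the opposite order. Syt1, of synaptic vesicles, differed by 3.74 and Chga, of secretory granules, by 6.68, while Tubb3, the neuronal tubulin, differed by -1.49 and Snap25 by 0.26. Of 13 measured neuronal genes, 6 were at least 2-fold higher and 1 lower, and the median was 0.39, against -1.14 in WT.

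Outside the lists, several genes lay among the farthest. Dnase1, a secreted nuclease of glands, differed by 8.89, the glucuronosyltransferase gene Ugt2a1 of olfactory mucosa by 5.73, the ciliary dynein gene Dynlrb2 by 5.44 and the airway mucin gene Muc5b by 4.85. On the low side, Crtac1, a matrix protein of cartilage, differed by -3.04, Cox6b2, a testis-type respiratory chain subunit, differed by -2.87, Lrrtm1 by -2.77 and Pmch, a neuropeptide precursor gene, by -2.64. The largest bounds on the low side were at least 85.5-fold for Wnt9b, 34.4-fold for Usp9y and 27.9-fold for Ccdc70, and the probes of all 3 lay in a locally bright area of a knockout array. Egfem1 was at least 11.0-fold lower and lay outside such areas. Transcripts of both sex chromosomes were read on both knockout arrays, with Xist at -2.75 and -3.08 and Ddx3y at -1.94 and -2.09, and none of the 5 genes listed was 2-fold apart.

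The age difference in WT was read over separate arrays, so the 2 comparisons share no sample. In WT, 869 of 16099 measured genes (5.4%) were at least 2-fold higher at 10 weeks and 555 (3.45%) lower, 8.85% in all, with 44% of differences positive and 56% negative and a standard deviation across genes of 0.63 against 0.74 in the knockout. Of 1038 genes called higher in Mkx-KO and measured in WT, 363 were higher by that much in WT too, 77 lower by that much, and 826 had the same sign. Their median in WT was 0.66. Of 529 genes lower in Mkx-KO, 173 were at least 2-fold lower in WT, 3 higher, and 488 had the same sign, with a median of -0.82. Across 15506 genes measured in both, the differences correlated with Pearson's r of 0.52, as a description across genes. With 1 array a group, whether a gene's age difference depends on genotype was not tested.

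**Figure D5:**
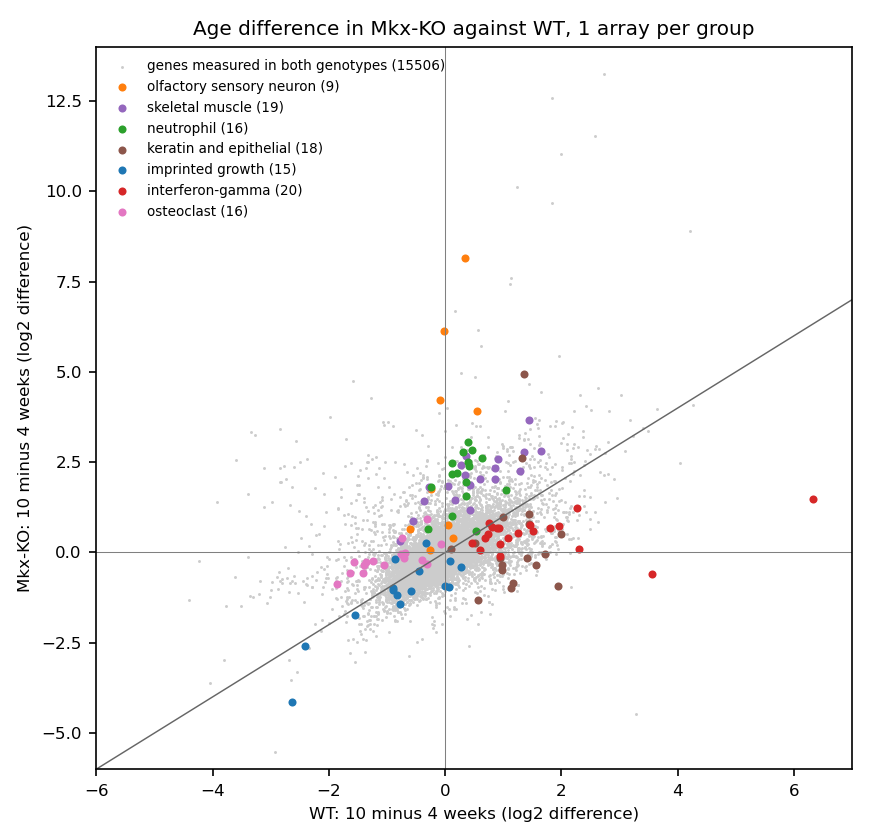
Age difference (10 minus 4 weeks, log2) of each gene in WT (horizontal axis) and in Mkx-KO (vertical axis) for 15506 genes measured in both, 1 array per group; the line marks equal differences. Olfactory, muscle and neutrophil genes lie above the line, interferon-gamma and keratin genes mostly below it, and imprinted growth genes are negative in both with few exceptions.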

How the data were processed

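RNA of 4 preparations was measured on 1-colour Agilent arrays, 1 per group; the deposited values used are spot intensity on a linear scale, which the authors read with Agilent Feature Extraction 11.5.1.1, per the file headers and the submitters' processing notes. The software had subtracted background and spatial trend. The deposited series table holds the same intensity times 1 factor per array (2.08 for Mkx-KO at 10 weeks, 1.54 at 4 weeks; column medians 87.0 and 56.8), on a linear scale and not centred; how the factors were chosen is not given in the sources used here.

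Here, log2 values minus the 75th percentile of non-control spots were used. Flagged outlier spots (67 and 77 on the knockout arrays) were left out and spots of a probe averaged. Accessions of the array design matched RefSeq genes of GRCm38.p6 for 32994 of 56605 probes (58.3%); the design is annotated on another build, so no probe position is given. The brightest probe stood for a gene. Named genes are the 15 farthest apart and the 5 largest bounds each way, and in each of 55 lists the defining members and up to 6 with the largest difference; clones, predicted genes, receptor families and antigen receptor segments were not named among the farthest. Of 868 list members, 860 matched. Members, lists and promoters were chosen with earlier results of these data known. The calculation was tested on simulated data. Alternatives were quantile normalization, median centring, normexp with an offset of 50 on the median spot intensity, the deposited table, the mean over probes, 3 background filters, leaving out bright windows of 7 by 7 spots, other fold thresholds, 2 technical errors and members at their bounds. Python 3.11.15, numpy 2.4.6, pandas 2.3.3, scipy 1.17.1 and matplotlib 3.10.9 were used. The number of arrays limits the precision.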

Additional observations from a re-analysis of the deposited data

Results flagged for a closer look

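Among named genes, 9 were at least 2-fold apart in opposite directions in the 2 genotypes, and the difference between genotypes was not tested, since each group had 1 array. In Mkx-KO, 8 of them were higher at 10 weeks. The enamel gene Amelx differed by 4.75 in Mkx-KO and -1.59 in WT. The neuronal and synaptic genes Gad1, Slc32a1, Synpr and Syt1 differed by 3.25, 3.35, 1.38 and 3.74 in Mkx-KO and by -3.27, -3.35, -3.93 and -1.97 in WT. The lymphoid genes Dntt, Klrb1c and Mzb1 differed by 1.27, 2.48 and 1.01 in Mkx-KO and by -1.37, -1.63 and -1.14 in WT. The acute phase gene Saa3 ran the other way, -4.49 in Mkx-KO and 3.28 in WT. Of the gene lists, the median of B cell precursor genes was 0.78 in Mkx-KO and -0.89 in WT, the only list with medians of at least 0.5 in opposite directions.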

How the results depend on the processing

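The 1046 higher and 534 lower genes became 2013 and 2070 at a 1.5-fold threshold, 482 and 106 at 3-fold, 2567 and 901 without a background filter, and 510 and 306 after normexp background correction; the positive and significant filter gave 1799 higher genes. Under quantile normalization, median centring, the deposited values, the mean over probes, the filter on all 4 arrays, 2 technical errors and without bright windows, both counts stayed within 1.5 times. Of 209 named genes past 2-fold, 149 kept that call and direction under every setting that measured them, and no measured named gene called 2-fold apart reversed. Medians of 47 of 56 lists kept their sign. The cause of the shifts below was not tested.

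Quantile normalization moved these list medians: fibrillar collagens to -0.18, cartilage 0.11, endoplasmic reticulum folding -0.42, respiratory chain 0.0009, fibroblast 0.34, T and natural killer cell 0.16, slow muscle 0.086, adipocyte 0.90, epithelial 0.14, olfactory 1.42 and sex-linked -0.0072. Normexp gave enamel and dentine -1.21, T and natural killer cell 0.25, skeletal muscle 1.79, slow muscle 0.17, adipocyte 0.75, salivary 1.22, kallikrein and secretoglobin 2.43, nasal 3.23, olfactory 0.72, ciliated 0.94 and clock 0.42. No filter gave enamel and dentine -1.05, plasma cell 0.99, slow muscle 0.10, adipocyte 1.08, salivary 1.91, kallikrein and secretoglobin 3.77, nasal 9.25, olfactory 4.00, neuronal 1.21 and ciliated 2.53. The positive and significant filter gave enamel and dentine -1.05, plasma cell 0.99, salivary 1.91, kallikrein and secretoglobin 3.69, nasal 6.18, olfactory 3.88 and neuronal 1.21. Members at their bound, whose sign is set by the array that read them, gave enamel and dentine -1.05, plasma cell 0.65 and salivary 2.04. They also gave nasal 7.59, olfactory 3.39 and neuronal 0.60. The mean over probes gave erythroid 1.16, Schwann cell 0.11 and adipocyte 1.09, and the filter on all 4 arrays gave enamel and dentine -1.05.

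No paired analysis was possible because each group had 1 array, and leaving an array out leaves no comparison. Dim probes limit the large folds, since their lower end is set by the background.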
